A study of Homo sapiens with 2 samples.

Results

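FAIRE-seq peaks at 6 genes on the long arm of chromosome 14, STXBP6, NOVA1, PRKD1, AKAP6, NPAS3 and LRFN5, were examined in HepG2, an established line from a human liver cancer. FAIRE recovers the DNA that formaldehyde has not crosslinked to protein, so sequenced fragments are richer in open chromatin. Lentiviral particles had brought in a small hairpin RNA, either a scrambled one (control) or one against the nuclear receptor NR2E3 (NR2E3-depleted). Both groups were kept in the same medium and serum, and each had 1 library from 1 line. No difference below has a replicate check, no p-value was computed, and every interval is a 95% interval that covers counting error only and treats peaks as independent. Peaks had been sorted into 3 lists, common to both libraries (common), found in the control library alone (control-specific) and found in the depleted library alone (depleted-specific).

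A peak belonged to a gene when the deposited annotation gave that gene as its nearest transcription start site (TSS). The lists named 13858 genes, and these 6 were named for 1427 of 56159 peaks (2.54%). The 6 genes were chosen by their number of peaks and, for some, by their excess of depleted-specific peaks, so peak numbers and ratios are given as a description. They ranked 1st, 5th, 7th, 8th, 10th and 12th of all genes by peak number. The 15 genes with most peaks were all on chromosome 14, and those ranked between the members, such as FBXO33 (315 peaks) and EGLN3 (266), are not described here. All 6 genes lie between 20 and 45 Mb of the chromosome (hg38), called the segment here, and hold 16.6% of its 8607 peaks.

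The genes work at different places in nerve cells. STXBP6 (amisyn) binds SNARE proteins and regulates exocytosis, and LRFN5 is a synaptic adhesion molecule with leucine-rich repeats. PRKD1 encodes protein kinase D1, a serine/threonine kinase downstream of diacylglycerol, and AKAP6 anchors protein kinase A at the nuclear envelope of muscle and nerve cells. NPAS3 is a neuronal transcription factor of the bHLH-PAS family, and NOVA1 is an RNA-binding protein that directs alternative splicing in neurons. FAIRE measures no RNA, so expression of the genes was not assessed. Markers of liver and nerve cells were looked up among promoter peaks, the class of peaks next to a TSS. Of 10 hepatocyte markers, 6 had a promoter peak, and each of the 6 had a common one. ALB, TTR, FGB and AFP had none. None of 8 neuronal markers had a promoter peak. The share of all genes with a promoter peak was not computed, so these counts are a description only.

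Sequences from the hg38 reference are shown for 5 peaks on which the description turns, as the central 200 bases on the plus strand. They are the peak with most tags at any of the genes, the single common promoter peak, the control-specific promoter peak of AKAP6, and a pair of neighbouring PRKD1 peaks that stand in opposite lists. Capitals mark matches to the Sp1 motif GGGCGG or the NFY motif CCAAT on either strand, so that CCGCCC and ATTGG are the same motifs read on the other strand.
STXBP6 intron peak, common, chr14:24885464-24885663: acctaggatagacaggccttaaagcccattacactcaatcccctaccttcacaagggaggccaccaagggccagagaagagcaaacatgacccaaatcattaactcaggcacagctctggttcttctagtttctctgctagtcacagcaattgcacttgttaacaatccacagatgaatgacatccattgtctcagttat
STXBP6 promoter peak, common, chr14:25050090-25050289: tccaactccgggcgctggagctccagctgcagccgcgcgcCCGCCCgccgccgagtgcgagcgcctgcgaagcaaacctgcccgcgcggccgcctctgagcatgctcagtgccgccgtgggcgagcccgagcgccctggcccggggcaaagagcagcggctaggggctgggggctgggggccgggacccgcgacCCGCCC
AKAP6 promoter peak, control-specific, chr14:32328349-32328548: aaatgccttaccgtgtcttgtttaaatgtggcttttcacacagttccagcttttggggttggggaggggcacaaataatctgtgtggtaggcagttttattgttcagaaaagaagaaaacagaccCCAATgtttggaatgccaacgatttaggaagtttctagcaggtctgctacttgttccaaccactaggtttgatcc
PRKD1 upstream peak, control-specific, chr14:30214287-30214486: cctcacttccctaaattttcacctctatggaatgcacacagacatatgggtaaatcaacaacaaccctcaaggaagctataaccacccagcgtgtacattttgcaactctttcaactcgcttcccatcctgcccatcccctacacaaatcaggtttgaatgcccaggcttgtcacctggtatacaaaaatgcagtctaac
PRKD1 upstream peak, depleted-specific, chr14:30214615-30214814: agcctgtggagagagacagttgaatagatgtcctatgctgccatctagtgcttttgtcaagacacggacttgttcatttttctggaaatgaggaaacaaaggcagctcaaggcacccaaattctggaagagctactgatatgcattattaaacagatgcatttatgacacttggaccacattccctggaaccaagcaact

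The peak numbers of the genes differed more in the common list than in the specific lists. STXBP6 had 133 common peaks, beside 149 in the control-specific list and 173 in the depleted-specific list. LRFN5 had 27 common peaks, with 93 specific to the control library and 113 specific to the depleted one. These are the membrane and synapse proteins, and in both the depleted-specific list was the longest. Of the kinase pathway genes, PRKD1 had 34 common peaks, 96 in the control-specific list and 84 in the depleted-specific list. AKAP6 had 45, 65 and 64 peaks in the same order. In neither of these was the depleted-specific list the longest. Of the nuclear regulators, NPAS3 had 31 common peaks, with 69 in the control-specific and 94 in the depleted-specific list. NOVA1 had 15 peaks in common, 63 that were control-specific and 79 that were depleted-specific, and its common list was the shortest of the 6.

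**Figure D1:**
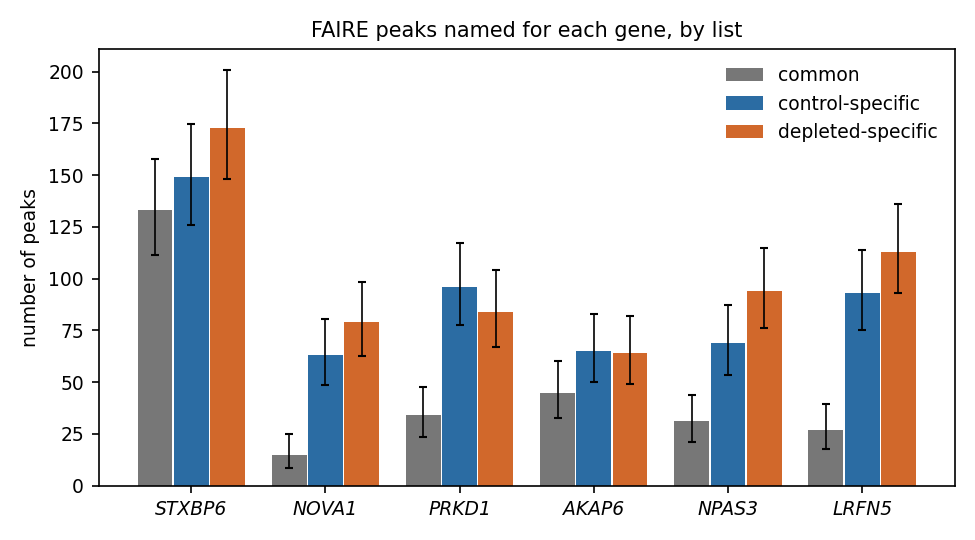
Number of peaks (vertical axis) named for each of the 6 genes, in the common, control-specific and depleted-specific lists, with exact Poisson 95% intervals of the counts as bars. STXBP6 stands highest in every list, with 133, 149 and 173 peaks, and the intervals of the specific lists overlap within each gene.

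Summed over the genes, 535 control-specific and 607 depleted-specific peaks gave a ratio of 1.13, with an interval of 1.01 to 1.28. The depleted-specific peaks were thus 72 more. The excess was 25 at NPAS3, 24 at STXBP6, 20 at LRFN5 and 16 at NOVA1. PRKD1 had 12 fewer depleted-specific than control-specific peaks and AKAP6 had 1 fewer. The ratio was 1.36 at NPAS3, with an interval of 0.988 to 1.89. At NOVA1 it was 1.25 (0.889 to 1.78), at LRFN5 1.22 (0.915 to 1.62) and at STXBP6 1.16 (0.927 to 1.46). AKAP6 had a ratio of 0.985 (0.686 to 1.41) and PRKD1 one of 0.875 (0.645 to 1.19). Each gene's own interval held 1, and the 6 intervals overlapped.

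The ratios of other parts of the genome are set beside that of the 6 genes as a description. Other peaks of the segment had a ratio of 0.926 (0.876 to 0.978). The 6 chromosomes dense in peaks (2, 6, 14, 16, 17 and 20), with the segment left out, had 1.37, chromosome 14 outside the segment 2.72 and the remaining chromosomes 2.92. Over all peaks it was 1.57 (1.54 to 1.61). None of the 6 genes reached 1.5 times as many depleted-specific as control-specific peaks. Among all genes with at least 10 specific peaks, 36.9% (274 of 743) did, and among the other 104 such genes of the segment 9.62% (10) did. These numbers are those on which the genes were chosen, and nothing is read from them. The depth of the depleted library was inferred as 0.802 of that of the control library, from the size of the score steps and on the assumption that both lists use 1 scale, which is not stated. Its part in the ratios was not tested.

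**Figure D2:**
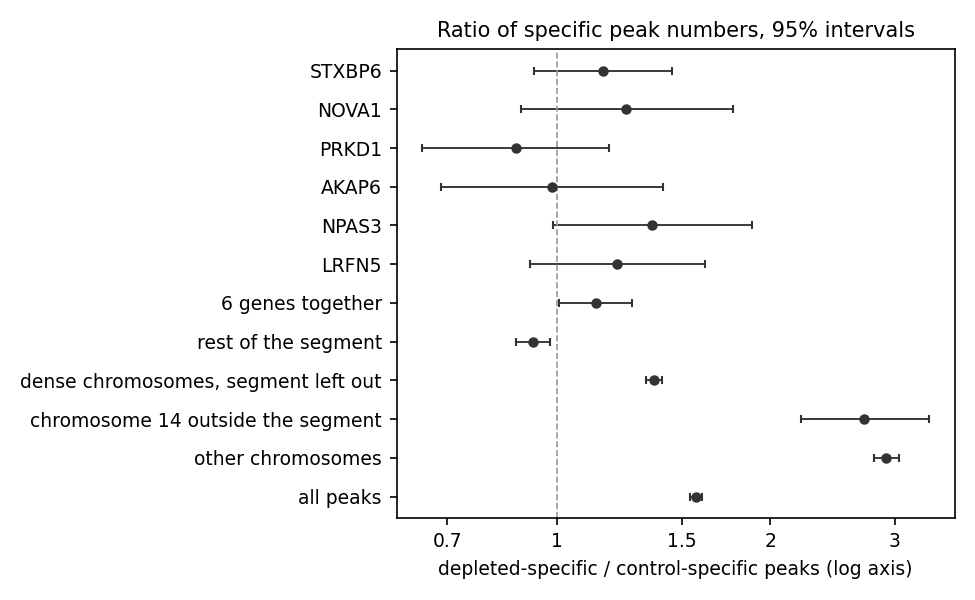
Number of depleted-specific peaks divided by number of control-specific peaks (horizontal log axis) for each gene, for the 6 genes together and for other parts of the genome, with 95% counting intervals as bars and a dashed line at 1. The 6 genes together stand at 1.13, the rest of the segment at 0.926 and all peaks at 1.57.

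Among peaks taken by name, a smaller share was found in both libraries at these genes than in the rest of the segment. Of the 820 control-library peaks of the 6 genes, 34.8% were common (31.5% to 38.1%). The share was 43.6% (42.1% to 44.98%) among the other peaks of the segment and 46.95% among all peaks. Of the 892 depleted-library peaks of the 6 genes, 31.95% were common (28.9% to 35.1%), against 45.46% in the rest of the segment. Among all depleted-library peaks the share was 35.99%, nearer to that of the 6 genes. The rest of the segment was thus below all peaks for the control library and above them for the depleted library. By position the intervals overlapped for control-library peaks, with 40.2% (36.1% to 44.3%) in the 6 gene bodies and 42.5% (41.1% to 43.9%) in the segment outside them. For depleted-library peaks they stayed separate, with 37.6% (33.7% to 41.6%) in the bodies and 43.95% (42.5% to 45.4%) outside them. By name the share of control-library peaks was highest at STXBP6, 47.2% (41.2% to 53.2%), followed by AKAP6 at 40.9% (31.6% to 50.7%) and NPAS3 at 31.0% (22.1% to 41.0%). It was 26.2% at PRKD1 (18.8% to 34.6%), 22.5% at LRFN5 (15.4% to 31.0%) and 19.2% at NOVA1 (11.2% to 29.7%). Neighbours in this order had overlapping intervals, whereas the interval of STXBP6 did not reach those of NOVA1, LRFN5, PRKD1 or NPAS3.

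The order followed the base composition of the genes' surroundings, except that NOVA1 and LRFN5, and STXBP6 and AKAP6, changed places. The stretch between a gene's first and last peak had a GC content of 34.6% at LRFN5, 36.1% at NOVA1, 37.0% at PRKD1, 37.5% at NPAS3, 38.2% at STXBP6 and 38.7% at AKAP6. The same measures were set side by side in the 25 bins of 1 Mb in the segment, which share the 2 libraries and include the 6 genes. Spearman's rho between GC content and the number of common peaks was 0.75, and between GC content and the common share it was 0.66. The numbers in the other lists rose with GC content too, with a rho of 0.67 for control-specific, 0.69 for depleted-specific and 0.68 for all peaks. The bins from 26 to 29 Mb and from 40 to 43 Mb, which include the bodies of NOVA1 and LRFN5, had GC contents of 34.4% to 35.7%. Their common shares were 12.2% to 27.8%. Of these, the bins from 27 to 29 Mb and from 40 to 41 Mb held no peak of the 6 genes. Peaks named NOVA1 also lay in the bin from 25 to 26 Mb, with a GC content of 37.85% and a common share of 38.1%. The bin from 43 to 44 Mb, with a GC content of 34.5% and a common share of 60.7%, stood apart. It held 10 peaks of the 6 genes.

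**Figure D3:**
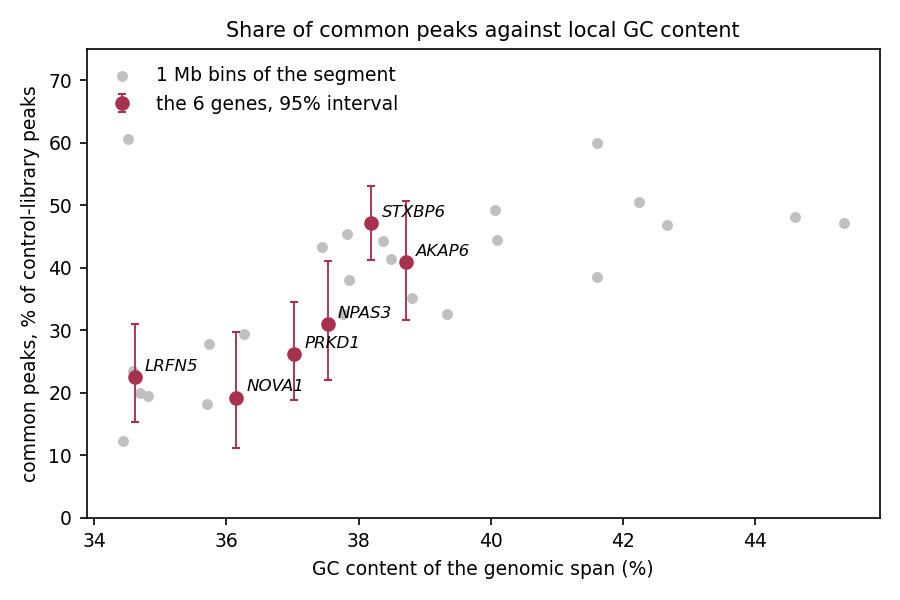
Share of control-library peaks that were common (vertical axis, %) against GC content (horizontal axis, %) for the stretch of each of the 6 genes, with exact 95% intervals as bars, and for the 24 bins of 1 Mb in the segment with at least 20 control-library peaks (grey). LRFN5, NOVA1 and PRKD1 sit at the lower left, with shares of 19.2% to 26.2%, and STXBP6 and AKAP6 above 40%, and a single grey bin at a GC content of 34.5% reaches 60.7%.

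Density over the gene bodies was counted by position, as peaks of any name whose centre lay between the ends of the gene in GENCODE. STXBP6 (chr14:24809454-25050147, minus strand) spans 241 kb and held 207 peaks, or 86.0 per 100 kb (74.7 to 98.6), the highest of 3661 protein-coding genes of at least 100 kb, although its interval overlapped that of the next gene. NPAS3 (chr14:32934396-33820863, plus strand) held 345 peaks over 886.5 kb, or 38.9 per 100 kb, and AKAP6 (chr14:32329298-32837684, plus strand) held 193 over 508 kb, or 37.96. PRKD1 (chr14:29576479-30191898, minus strand) had 24.5 per 100 kb from 151 peaks. LRFN5 (chr14:41606876-41904549, plus strand) had 14.1 from 42 peaks. NOVA1 (chr14:26443090-26598033, minus strand) had 7.75 from 12 peaks, with an interval of 4.002 to 13.5. Among the 6 genes, the intervals of NPAS3 and AKAP6 overlapped, as did those of LRFN5 and NOVA1, and the other neighbours in this order had separate intervals.

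Rank by named peaks and rank by density differed. Within the segment, 24 protein-coding genes of at least 100 kb were compared, and the 6 genes ranked 1st, 17th, 18th, 21st, 22nd and 23rd. The 18 others had a median of 55.6 peaks per 100 kb, and only KLHL28, which crosses the end of the segment, was below NOVA1. The 6 bodies together had 35.1 per 100 kb (32.9 to 37.5), and the segment outside them had 34.3. Long genes of the dense chromosomes elsewhere had a median of 2.80 per 100 kb, and those of the remaining chromosomes one of 0.360. For PRKD1 the GENCODE gene reaches 264 kb further upstream than the RefSeq gene, and 77 of the 78 peaks in that stretch were classed as intergenic. Over the RefSeq span PRKD1 had 20.8 peaks per 100 kb.

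**Figure D4:**
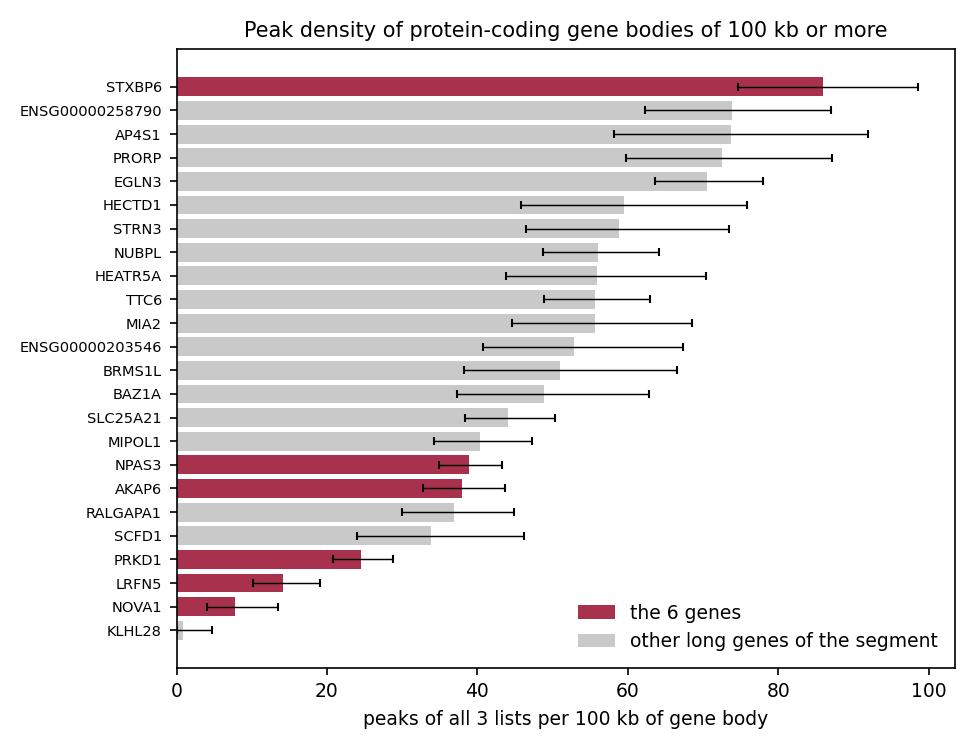
Peaks of all 3 lists per 100 kb of gene body (horizontal axis) for the 24 protein-coding genes of at least 100 kb that overlap the segment, with exact Poisson 95% intervals as bars and the 6 genes in red. STXBP6 stands first at 86.0, NPAS3 and AKAP6 stand at 38.9 and 37.96, and PRKD1, LRFN5 and NOVA1 stand next to the end, above KLHL28.

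The body of STXBP6 also differed from its flank in which peaks it held. Peaks of any name inside the body were 94 in the common, 46 in the control-specific and 67 in the depleted-specific list, so common peaks were the most numerous and made up 67.1% of control-library peaks (58.7% to 74.8%). In the stretch of the same length beyond the 5′ end they were 26, 37 and 36, a common share of 41.3% (29.0% to 54.4%). The GC content was 39.2% in the body and 38.7% in that stretch. The flanking stretch was added after the values of the body were seen. Of the peaks named for STXBP6, 64.2% of the control-library peaks inside the body were common (54.9% to 72.7%), against 34.6% outside (27.3% to 42.4%). Over all 6 genes the shares were 41.4% inside (36.4% to 46.5%) and 29.0% outside (24.8% to 33.5%). STXBP6 held 77 of the 158 common peaks inside. AKAP6 (36.8% inside, 56.5% outside), NPAS3 (27.8%, 34.8%) and LRFN5 (20.8%, 22.9%) went the other way. NOVA1 (50%, 16.7%) and PRKD1 (28.6%, 20.5%) went with the sum. In each of these genes but STXBP6 the intervals overlapped, and only 35 peaks of AKAP6 were outside.

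The name of a peak and its position often disagreed, because the nearest TSS can belong to another gene. Of the 345 peaks in the body of NPAS3, 112 were named NPAS3 and 233 were named for SNORA89, a small nucleolar RNA gene. Of the 193 peaks in the body of AKAP6, 139 were named AKAP6 and 54 were named NPAS3. In turn, 48 of the 159 intronic peaks named NPAS3 were annotated to an AKAP6 transcript, and 111 to NPAS3 itself. The body of STXBP6 held 27 peaks named for GZMB. All peaks in the bodies of LRFN5, NOVA1 and PRKD1 carried the gene's own name. By position the 6 bodies held 229 common peaks, 341 in the control-specific list and 380 in the depleted-specific list, a ratio of 1.11 (0.960 to 1.29), and the interval then held 1.

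Most peaks of the 6 genes lay far from a TSS. The median distance was 212 kb, against 38.1 kb in the rest of the segment and 21.2 kb over all peaks, and 74.0% lay beyond 100 kb, against 26.1% and 16.4%. Naming by the nearest TSS takes in the gene-poor sequence on either side of a gene, and distance is thus tied to the way the genes were chosen. LRFN5 collected peaks over 1767 kb, as far as 1450 kb downstream of its TSS, and 191 of its 233 peaks were outside its body. NOVA1 had 145 of 157 peaks outside its body, and 156 lay downstream of its TSS. STXBP6 had 274 peaks upstream of its TSS, as far as 747 kb, and 181 downstream. AKAP6 had the most compact set, over 360 kb with a median distance of 105 kb.

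**Figure D5:**
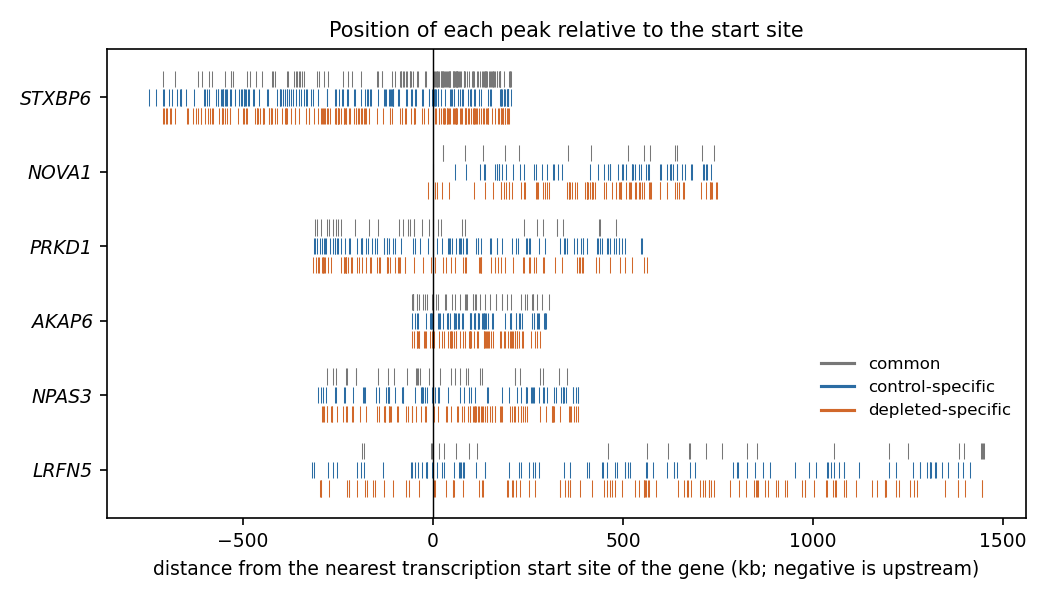
Position of every peak named for the 6 genes, as distance from the nearest TSS of the gene in kb (horizontal axis, negative values upstream), with 1 stroke per peak and separate rows for the common, control-specific and depleted-specific lists. NOVA1 peaks run downstream only but for 1, LRFN5 peaks reach 1450 kb, and 77 of the 133 common STXBP6 peaks lie inside the gene body.

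The annotation classed 597 of the 1427 peaks as intronic (41.8%, 39.3% to 44.5%) and 811 as intergenic (56.8%, 54.2% to 59.4%). In the rest of the segment 52.7% were intergenic, and over all peaks 39.9% were. The intronic share was 82.0% at NPAS3, 77.6% at AKAP6, 39.1% at STXBP6, 34.1% at PRKD1, 17.6% at LRFN5 and 7.01% at NOVA1. Summed over the 6 genes, common peaks were intronic in 52.6% (46.7% to 58.6%). The shares were lower in the control-specific list, 38.7% (34.5% to 43.0%), and the depleted-specific list, 39.5% (35.6% to 43.6%). STXBP6 held 76 of the 150 common intronic peaks, with shares of 57.1%, 28.9% and 34.1% in the same order. NOVA1 also had its highest share in the common list, from 3 of 15 peaks. The common share was the lowest at AKAP6 (68.9%, 84.6%, 76.6%), NPAS3 (77.4%, 78.3%, 86.2%) and PRKD1 (32.4%, 35.4%, 33.3%). At LRFN5 it lay between the others. Intron 3 of the STXBP6 transcript NM_001351943 alone held 90 peaks, 37 of them common. Intron 1 of AKAP6 held 51 peaks, intron 1 of PRKD1 held 44 and intron 2 of the NPAS3 transcript NM_001164749 held 44, of which 26 were depleted-specific and 5 common.

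Promoter peaks were rare at the 6 genes, with 5 of 1427 (0.350%, 0.114% to 0.816%), against 2.94% in the rest of the segment and 12.8% over all peaks. STXBP6 had 3, each in a different list. Its common promoter peak, the second sequence above, lay 108 bp downstream of the TSS of the deposited annotation. It had 14 tags and a GC content of 75% over its 300 bp, and the printed bases hold the Sp1 motif at more than 1 place. From the outermost RefSeq TSS its centre was 42 bp upstream. The control-specific one lay 461 bp upstream of the deposited TSS with 16 tags, and the depleted-specific one 855 bp upstream with 12 tags. From the RefSeq TSS they were 611 and 1005 bp away. AKAP6 had 1 control-specific promoter peak, 850 bp upstream with 22 tags, the most of the 5. PRKD1 had 1 control-specific promoter peak, 985 bp upstream with 16 tags. Peaks of the intron class lay closer to a start site in both of these genes, at PRKD1 a common one with 17 tags at 409 bp and at AKAP6 a control-specific one with 15 tags at 735 bp.

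NPAS3, LRFN5 and NOVA1 had no peak of the promoter class under their own names. The peak nearest to the NPAS3 TSS used here was control-specific, at 1234 bp upstream. Both that TSS and the peak lie inside the gene body. At LRFN5 it was control-specific too, at 1686 bp upstream. At NOVA1 a control-specific peak lay 450 bp from the outermost TSS but was annotated to the promoter of LINC02588. A control-specific peak named NOVA1, with 16 tags and of the intron class, lay 210 bp from another, internal TSS of the gene. GC content was taken in RefSeq windows of 250 bases before to 50 after the start. It was 83.0% at NPAS3, 72.3% at LRFN5, 72.7% at the outermost NOVA1 TSS and 44.3% at the internal one. At the outermost RefSeq TSS of PRKD1 it was 81.7%, and at AKAP6 41.3%. The absence of a listed peak says only that none passed the authors' threshold at this depth.

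Exons held 9 peaks of the 6 genes, the 5′ UTRs 2 and the 3′ UTRs 2, and 1 was in a non-coding transcript. AKAP6 had peaks in exon 2, exon 3 and exon 4 of NM_004274, the first of them common and the 3 others depleted-specific. In exon 13 of the same transcript lay 3 control-specific and 2 depleted-specific peaks, and these were named NPAS3.

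Peaks of these genes rested on few tags (sequenced fragments), as inferred from the steps of the deposited peak scores. The median was 15 tags in the common list, 15 in the control-specific list and 13 in the depleted-specific list, and a count of 15 has a Poisson interval of 8.40 to 24.7. Peaks with 20 or more tags made up 14.7% of the common list, 3.36% of control-specific and only 0.824% of depleted-specific peaks. In the rest of the segment, 21.7% of common peaks reached 20 tags. STXBP6 had the peak with most tags, the first sequence above, a common peak in an intron 163 kb downstream of the TSS with 35 tags (24.4 to 48.7). STXBP6 also held 29 of the 42 common peaks with 20 or more tags. The highest common peaks of the other 5 genes had 21 to 23 tags, and their intervals overlapped.

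Within the 6 genes, PRKD1 had the depleted-specific peak with most tags, 28, and shared with STXBP6 the highest control-specific value, 24. These are the last 2 sequences above. Their centres were 328 bp apart, 287 kb upstream of the TSS, with a gap of 28 bp between their ends, although the lists count them as sites specific to opposite libraries. Of the 535 control-specific peaks of the 6 genes, 142 (26.5%) had a depleted-specific peak within 1000 bp, centre to centre. The share was 43.1% at AKAP6 (30.9% to 56.0%) and 36.2% at STXBP6 (28.5% to 44.5%), and it was 9.68% at LRFN5 (4.52% to 17.6%). Over the whole lists no control-specific and depleted-specific peaks had centres closer than 301 bp, and every peak is 300 bp wide, so that peaks of opposite lists never overlapped. Against the common list, 38 control-specific peaks had a common centre within 300 bp, the closest at 79 bp, and 0 depleted-specific peaks did.

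When common peaks were also counted as peaks of the other library, 33.5% of control-specific peaks of the 6 genes (29.5% to 37.6%) and 31.6% of depleted-specific peaks (28.0% to 35.5%) had one within 1000 bp. In the rest of the segment the shares were higher, 44.97% and 44.8%, and over all peaks lower, 21.7% and 14.9%. AKAP6 had 49.2% and 50%, STXBP6 47.7% and 48.0%, and LRFN5 17.2% and 10.6%. The control-specific shares of the 6 genes stood in the order of their peaks per length between the first and last peak, 48.3 per 100 kb at AKAP6, 47.7 at STXBP6 and 13.2 at LRFN5, and the part of density in them was not tested.

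Sequence features were not used to choose the genes. Peaks of the 6 genes had a median GC content of 41.0% over 300 bp, with quartiles of 38.3% and 43.7%, against 42.3% in the rest of the segment and 44.7% over all peaks. Each peak was searched on both strands for motifs of 5 factors. TGANTCA (AP-1) was in 11.6% of the peaks (10.0% to 13.4%), TGTTTAC (FOXA) in 5.61% (4.47% to 6.93%) and CAAAGTCCA (HNF4A) in 0.420% (0.155% to 0.913%). Over all peaks of this length the shares were 12.1%, 6.09% and 1.35%, and in the rest of the segment 9.88%, 3.997% and 0.543%. GGGCGG (Sp1) was in 2.03% of peaks at the 6 genes (1.37% to 2.91%), below 4.07% in the rest of the segment and 13.1% over all peaks. Outside promoters the Sp1 shares were 1.97%, 3.06% and 5.93%. For FOXA and AP-1 the intervals of the 6 genes overlapped those of both comparisons, and the share of HNF4A, a liver factor like FOXA, was below that over all peaks. A match describes only the letters present.

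CCAAT (NFY) was found more often in depleted-specific than in control-specific peaks of the 6 genes. It was in 48.3% of depleted-specific peaks (44.2% to 52.3%), 39.6% of control-specific peaks (35.5% to 43.9%) and 40.7% of common peaks (35.0% to 46.7%), and the first interval overlapped the last but not the second. Depleted-specific peaks in the rest of the segment held it in 38.6% (36.6% to 40.5%) and those of all genes in 37.0% (36.5% to 37.6%). The depleted-specific share was above the control-specific one in 5 of the 6 genes. It was 53.8% against 42.3% at STXBP6, 53.1% against 45.2% at LRFN5, 46.9% against 30.8% at AKAP6, 44.1% against 33.3% at PRKD1 and 43.0% against 39.7% at NOVA1. At NPAS3 it was 41.5% against 43.5%. Within each gene the intervals overlapped, and with 5 motifs and 3 lists compared and 1 library per group, no test was possible. Median GC content was 40.7% in the depleted-specific and 41.3% in the control-specific peaks, and its part in the shares was not tested.

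Genes that share a symbol stem with a member, and other long neural genes, lay outside the segment. The first list held 15 genes, among them LRFN2, NOVA2, PRKD2 and PRKD3. It took STXBP genes by name although some belong to other protein families than STXBP6, and it held no AKAP gene. Of the 15, 10 were named for a peak, with 46 peaks in all, of which 29 were at NPAS2 on chromosome 2. The median was 1 peak, against 157 to 455 at the 6 genes, which were chosen by their number of peaks. These contrasts are therefore a description only, and the share of all genes named for a peak was not computed. Of 18 long neural genes elsewhere, 9 were named for a peak, with 130 peaks, 80 of them at RBFOX1 on chromosome 16 and 25 at MACROD2 on chromosome 20. Their bodies together held 0.938 peaks per 100 kb, with the highest value, 4.47, at MACROD2, against 35.1 in the bodies of the 6 genes. The 18 other long genes of the segment had a median of 55.6. NRXN3, which lies on chromosome 14 outside the segment, held no peak in a body of 1698 kb.

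The genes most like the 6 in how their peaks were divided were sought among 374 other genes with at least 20 peaks, by the distance between the shares of the 3 lists. The 6 genes together had 19.97% of their peaks in the common list, 37.5% in the control-specific and 42.5% in the depleted-specific one. The nearest were MIR3126 on chromosome 2 and NFATC2, LINC00237, VAPB and MIR3616 on chromosome 20, with 24 to 39 peaks each and distances of 0.012 to 0.025. The 6 genes themselves were further from their own sum, at 0.074 to 0.133.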

How the data were processed

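FAIRE-seq had been done on HepG2 cells, with 1 control and 1 NR2E3-depleted library, grouped by the treatment in the labels. Per the labels and the study's methods, the authors processed reads with bcl2fastq 2.17, Trimmomatic 0.39, Bowtie2 2.4.5 and SAMtools 1.14, aligned them to hg38, called peaks with HOMER and deposited 3 annotated lists of 300 bp peaks. The peak score they deposited is a signal whose scale is not stated, and the deposited distance to the TSS is in bp. Whether calls allowed for copy number or an input is not given in the sources used here, nor is how common and specific peaks were separated. The common list carries tags on the scale of the control library.

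In each list all scores under 10 (100%) came out as whole numbers of tags when divided by a single step, within 0.0075 score units, and scores over that step were read as tags. The ratio of the steps gave the relative depth if both lists share a scale, and absolute depth is unknown. Peaks were taken by the deposited gene name, or for densities by peak centre within GENCODE 44 gene spans. Promoter windows came from RefSeq (GRCh38.p14), and all 6 genes matched. Shares carry exact Clopper-Pearson intervals, numbers of peaks exact Poisson intervals, and ratios intervals from the exact binomial share of specific peaks. With 1 library per group no test was run. The genes named are the 6 members, a list of genes sharing their symbol stems (1 listed gene is not reported here), a list of long neural genes, the 5 genes closest in list shares, the highest peak per list and every promoter peak. Members and lists were chosen with earlier results of these data known, as were the segment and the dense chromosomes. Alternatives are given in the closing section, and the score threshold was added after the data were seen. Repeat classes were planned but not analysed here. The code was tested on simulated data. Calculations used scipy 1.17.1, pandas 2.3.3 and numpy 2.4.6 under Python 3.11.15, and figures matplotlib 3.10.9.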

Additional observations from a re-analysis of the deposited data

How the results depend on the processing

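No paired analysis was possible because neither condition had a further library, and so no library could be left out. Requiring at least 15 tags left 564 of the 1427 peaks, turned the ratio of depleted-specific to control-specific peaks from 1.13 to 0.376 and lowered the body density from 35.1 to 15.1 peaks per 100 kb. A score of at least 6, chosen after seeing the data, left 941 peaks and gave a ratio of 1.73 and a density of 23.9. The same number of tags is a higher score in the shallower library, and the other peaks moved too, the rest of the segment to 0.354 and 1.24 and all peaks to 0.707 and 2.61. Merging neighbours within 1000 bp gave a density of 31.0. Taking peaks by position in place of name gave 950 peaks with an intronic share of 89.1%, and taking them by name gave a density of 52.8. Leaving out each gene in turn moved the ratio between 1.10 and 1.19. A body wider by 10 kb and leaving out promoters changed the values they bear on by less than their counting intervals. Treating a specific peak as shared when the other library had one within 1000 bp gave a ratio of 1.17 (1.01 to 1.35). Under that setting 356 of the 535 control-specific peaks stayed specific, so the common share would be higher, but it was not recomputed. Repeat classes were not run.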
